A study of Arabidopsis thaliana with 16 samples.

Results

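The comparison described here set the transgenic Arabidopsis thaliana line ARR1∆DDK:GR, given paclobutrazol (PAC) and GA3 but no inducer, against untreated wild type Columbia-0. Its members were chosen by sample title, 2 arrays of the line (ARR1_PAC_GA) and 2 arrays of wild type (Col_mock), which were 4 of the 16 Affymetrix ATH1 arrays in the series. PAC, GA3 and genotype differed together between these groups, so their shares in any difference cannot be told apart from these 4 arrays. All seedlings were of the Columbia-0 background, were grown on MS plates at 22 °C in continuous light, and were moved to liquid MS at 5 days. Their tissue was labelled as 6-day-old seedlings, while the RNA protocol gave 5 days. ARR1_PAC_GA seedlings received 10 µM PAC with 50 µM GA3 for 18 h, and Col_mock seedlings received none of the chemicals. The transgene is driven by the 35S promoter, which is active in most cells of the plant, and encodes ARR1 without its receiver domain (DDK) fused to the hormone-binding domain of the glucocorticoid receptor (GR). The labels name a single transgenic line. They call the replicates biological without saying whether separate cultures were used, so part of the variation between replicate arrays may be technical. A p-value here covers that variation alone, with its spread estimated from the replicates of all 16 arrays and not only of these 4.

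Gibberellins act by removing DELLA proteins, nuclear repressors of growth that accumulate when gibberellin is scarce. PAC blocks gibberellin synthesis, and GA3, a bioactive gibberellin supplied from outside, triggers DELLA degradation despite that block. ARR1 is a type-B response regulator, a transcription factor that switches on cytokinin response genes, among them the type-A response regulators that dampen the signal. A GR fusion stays in the cytoplasm until dexamethasone (DEX) is given, so the line was examined here in the state in which the transgene is not induced and DELLA proteins are expected to be low. The comparison asked which transcripts already differed from untreated seedlings in that state.

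Values were deposited on a log2 scale, on which a difference of 1 is a 2-fold change. Array medians lay between 3.08 and 3.12, the lowest value on any array was 2.36, and the 2 arrays of ARR1_PAC_GA and of Col_mock correlated at 0.985 and 0.983 across all probe sets, while arrays of the 2 different groups correlated at 0.975 to 0.984. Of 22746 probe sets that were not Affymetrix controls, 9454 reached a log2 value of 4 on at least 2 of the 16 arrays and were tested. No tested probe set carried the name ARR1, so the transgene was not checked by its transcript. Whole seedlings were used, so fewer cells of a type and less RNA per cell cannot be told apart. The only tissue marker with a named probe set that was tested, the root hair expansin gene EXPA18, had values of 4.11 and 3.84 in ARR1_PAC_GA and 3.97 and 3.95 in Col_mock.

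Between the line in PAC and GA3 and untreated wild type, 31 probe sets were called at an adjusted p under 0.05 with limma, which was 0.328% of those tested. They comprised 17 that were higher in the line (0.18%) and 14 that were lower (0.148%), and 28 of them differed at least 2-fold. The median of all log2 fold changes was −0.0024, and the median of their sizes was 0.14. An unadjusted p under 0.05 was reached by 612 probe sets. The platform table gave 1 gene for 15 of the 31, of which 9 were higher and 6 lower, and the other 16 (8 higher and 8 lower) stayed without a gene name. The defensin gene PDF1.2 had the highest fold change, 24.5-fold, and the smallest adjusted p belonged to AT5G22580, which encodes a stress-responsive A/B barrel domain protein. A jacalin-type lectin gene, AT1G52100, fell the most among named genes, 5.03-fold. On all 31 probe sets the arrays of the 2 groups did not overlap, as on 38.6% of all probe sets tested. Of the 31, 2 passed the filter on dim values only through the group in which they were high, AT5G62340 through ARR1_PAC_GA and AT1G56720 through Col_mock, so they had to differ and their values are given below as descriptions.

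**Figure D1:**
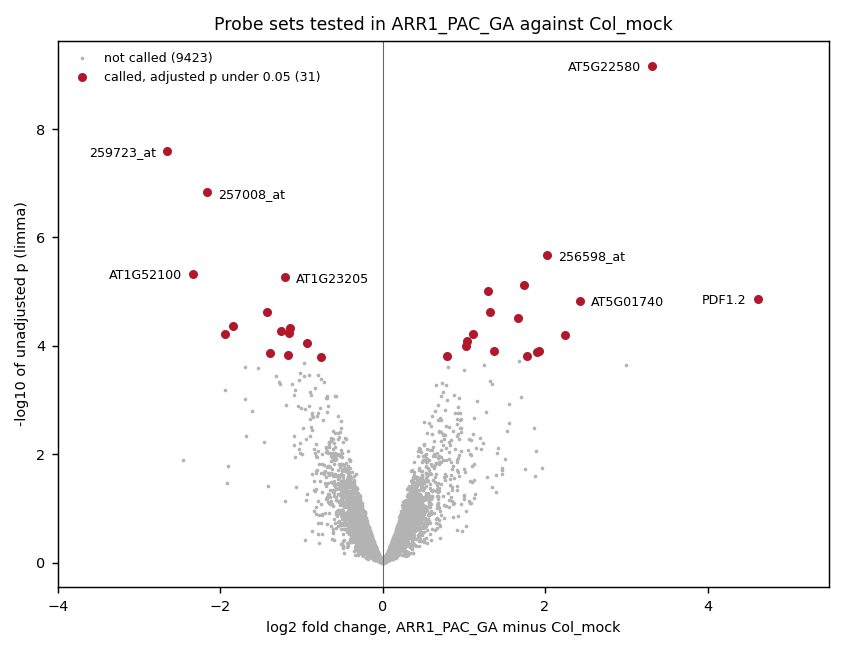
Each point is 1 of the 9454 probe sets tested, with its log2 fold change (ARR1_PAC_GA minus Col_mock) on the horizontal axis and −log10 of its unadjusted limma p on the vertical axis. The 31 called probe sets (red) lie apart from the bulk on both sides, with AT5G22580 at the top and PDF1.2 farthest to the right.

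Among the genes that rose, PDF1.2 (AT5G44420) encodes a plant defensin, a small antifungal protein widely used as a marker of jasmonate and ethylene signalling. Its log2 values were 7.51 and 8.44 in ARR1_PAC_GA and 2.71 and 4.02 in Col_mock, a difference of 4.62 ± 0.67 (log2 fold change with its SE, 2 arrays in each group; limma adjusted p = 0.0141). The untreated arrays were 1.31 apart, yet the lower line array stood above both by a wide margin. The difference ranged from 3.96 to 5.27 when each of the 4 arrays was left out in turn, and the call was lost each time, with an adjusted p of up to 0.187. Its relative PDF1.2b (AT2G26020) had values of 7.21 and 8.59 against 4.46 and 5.33, a difference of 3.00 ± 0.59 that missed the threshold (adjusted p = 0.0618). The probe set of PDF1.2b carries the suffix with which Affymetrix marks probes that can bind other transcripts, so signal from these 2 near-identical genes may be shared.

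AT5G22580 had the smallest adjusted p of all 9454 probe sets. It stood at 8.95 and 8.87 in ARR1_PAC_GA and at 5.60 and 5.60 in Col_mock, and rose by 3.31 ± 0.20 (adjusted p = 6.37e-06). This call was kept without each of the 4 arrays in turn, with an adjusted p of at most 0.000393. AT5G01740, a member of the nuclear transport factor 2-like family, read 7.85 and 7.86 against 5.51 and 5.32 and rose by 2.44 ± 0.36 (adjusted p = 0.0141). Its replicates differed by 0.19 in Col_mock and by less than 0.01 in ARR1_PAC_GA, far less than the groups did. In ARR1_PAC, however, they were 1.18 apart (8.20 and 7.03). The call of AT5G01740 was lost whichever of the 4 arrays was left out, and also with no filter.

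The other 6 named genes that were higher in the line differed less. AT1G13750, of the purple acid phosphatase family of phosphate-releasing enzymes, had values of 4.88 and 4.60 against 3.47 and 3.27 and rose by 1.37 ± 0.25 (adjusted p = 0.0467). AT5G62340, which belongs to the invertase and pectin methylesterase inhibitor superfamily, read 4.37 and 4.55 against 3.48 and 2.80. It reached the filter's level of 4 on no array but these 2 of ARR1_PAC_GA. Its call was lost with no filter, as 23 of the 31 calls were. Both genes were dim in wild type, within about 1 log2 unit of the floor, and the replicates of AT5G62340 in Col_mock differed by 0.68. AT4G38540, a flavin-dependent monooxygenase-type oxidoreductase gene, had values of 6.45 and 6.44 against 5.23 and 5.44 and rose by 1.11 ± 0.19 (adjusted p = 0.03). AT4G33540, of the metallo-beta-lactamase family, read 6.79 and 6.92 against 5.97 and 5.65 and rose by 1.04 ± 0.18 (adjusted p = 0.0362). These 2 genes were well above the floor in both groups and changed about 2-fold, and their calls too were lost with no filter.

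AT5G58570 had values of 4.96 and 4.65 in ARR1_PAC_GA and 3.54 and 4.01 in Col_mock, and rose by 1.03 ± 0.19 (adjusted p = 0.0412). AT1G71140, a member of the MATE family of efflux transporters, read 3.31 and 3.31 against 2.63 and 2.43 and rose by 0.79 ± 0.15 (adjusted p = 0.0483), the smallest rise called. Of the 16 arrays, 8 held a value of 3.31 to 3.32 for AT1G71140, all within 0.01 of the ARR1_PAC_GA mean, so its small spread between arrays is that of a repeated value near the floor. Its call was also lost with quantile normalization, with centring on the 75th percentile and with a trended, robust variance model.

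Among the genes that fell, AT1G52100, whose product is a mannose-binding lectin of the jacalin type, had values of 5.54 and 4.81 in ARR1_PAC_GA and 7.62 and 7.38 in Col_mock, and changed by −2.33 ± 0.31 (adjusted p = 0.00855). AT3G44970, a cytochrome P450 gene, read 5.61 and 4.92 against 7.20 and 7.21 and changed by −1.94 ± 0.33 (adjusted p = 0.03). For both genes the replicates of the line differed by about 0.7, and the higher of them still lay more than 1.5 below wild type. Both calls were lost with no filter. AT3G26960, of the Ole e 1 family of pollen allergen and extensin proteins, read 2.82 and 2.85 against 4.32 and 4.21 and changed by −1.43 ± 0.22 (adjusted p = 0.019). AT1G23205, like AT5G62340 of the invertase and pectin methylesterase inhibitor superfamily, read 2.91 and 3.23 against 4.14 and 4.40 and changed by −1.20 ± 0.16 (adjusted p = 0.00855).

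AT4G02850, of the phenazine biosynthesis PhzC/PhzF family, had values of 2.92 and 3.55 against 4.16 and 4.65 and changed by −1.17 ± 0.22 (adjusted p = 0.0483). AT1G56720, which encodes a protein kinase, read 3.30 and 3.12 against 4.21 and 4.07. Outside Col_mock it reached the filter's level of 4 on 1 array, and its call was among the 23 of 31 lost with no filter. Of the 6 named genes that were lower, the last 4 were near the floor in the line (2.82 to 3.55), and 16 of the 31 called probe sets had a mean under 4 in at least 1 of the 2 groups.

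The 16 called probe sets without a gene name covered a like range. The 8 that were higher changed by 1.29 to 2.24, led by 259640_at (8.08 and 8.31 in ARR1_PAC_GA, 5.44 and 6.46 in Col_mock) and 256598_at (6.26 and 6.27 against 4.24 and 4.24). The 8 that were lower changed by −2.65 to −0.76. The lowest was 259723_at, with values of 3.17 and 2.89 against 5.68 and 5.69 (−2.65 ± 0.22; adjusted p = 0.000118), followed by 257008_at, with 6.90 and 6.90 against 8.95 and 9.18 (−2.16 ± 0.21; adjusted p = 0.000465). Together with AT5G22580, these 2 probe sets that fell were the only 3 of the 31 that stayed called without each of the 4 arrays in turn. The signs of all 31 could not change in those fits, because the groups did not overlap on any of them. Most of the 31 lost their call whichever of the 4 arrays was left out.

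**Figure D2:**
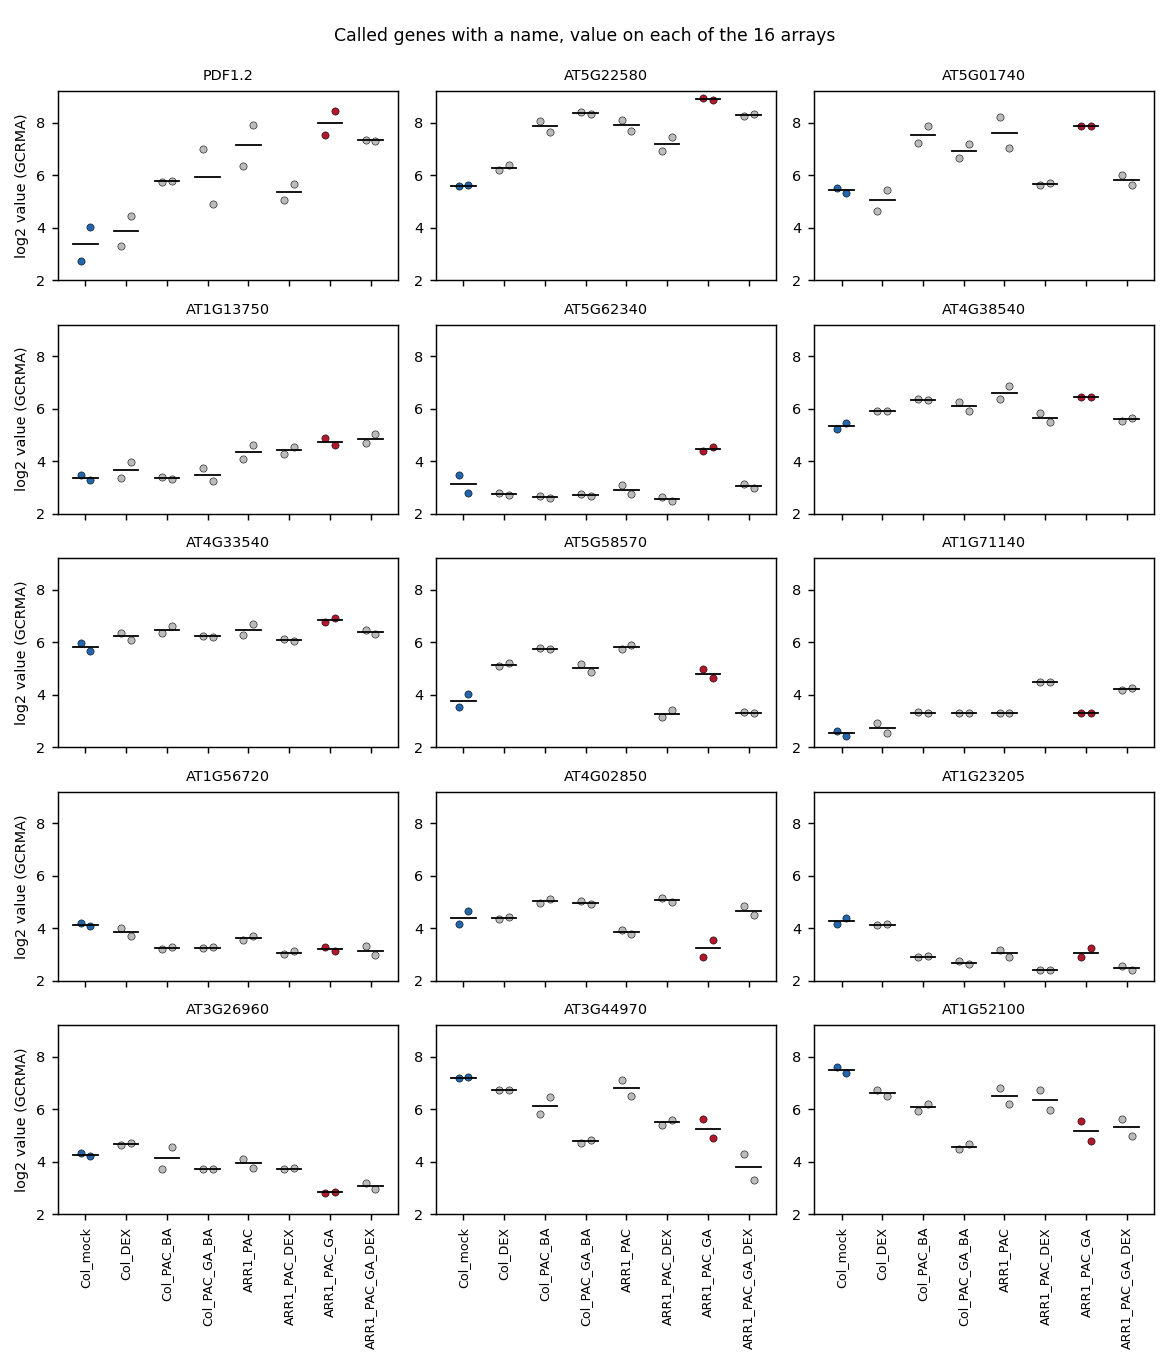
Each panel shows the log2 value (vertical axis) of 1 of the 15 named genes on the 16 arrays, by group, with 2 points for the arrays and a bar at their mean. Blue marks Col_mock, red marks ARR1_PAC_GA and grey the other 6 groups, so that AT5G22580 and PDF1.2 can be seen high in other groups given PAC too. AT5G62340, above 4 in red alone, passed the filter only through those 2 arrays.

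The last 4 called were AT4G02850, AT1G71140 and 2 unnamed probe sets, at a shared adjusted p of 0.0483. The first 3 outside it were AT4G22610 (1.68; adjusted p = 0.057), AT3G20370 (−0.96; adjusted p = 0.059) and PDF1.2b. In all, 110 probe sets differed at least 2-fold and 82 of these were not called. Of these, 42 had a gene name, with 27 above 0 and 15 below 0.

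The other 12 arrays of the series carried PAC, GA3 and the transgene in other combinations. They were used to describe where the 31 probe sets stood elsewhere. They did not enter the comparison of group means, but they entered the estimate of spread by which the 31 were called. Close replicates on these arrays favour both a call and a separation, so the shares below are not independent of the calls. Among these 12 arrays, 10 had PAC and 2 did not, and 11 of the 31 probe sets (35.5%) separated them in the direction of the comparison, against 5.05% of all probe sets tested. GA3 was present on 4 of the 12 arrays, and 6 of the 31 (19.4%) separated those from the other 8, against 0.698% of all. The line supplied 6 of the 12, and 4 of the 31 (12.9%) separated them from the 6 wild type arrays, against 0.571% of all. None of the 31 separated the 12 arrays in the opposite direction for any of the 3 factors. DEX and benzyladenine (BA) also differed among these arrays, so the patterns are descriptions of levels and not effects of 1 agent.

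Over all 16 arrays, 9 of the 31 separated the 12 arrays with PAC from the 4 without. Of these, PDF1.2, AT5G22580, AT5G01740, AT1G71140 and 2 unnamed probe sets were higher with PAC. AT1G23205 and 2 unnamed probe sets were lower with PAC. AT5G22580 is an example of a pattern that tracked both PAC and GA3. It ranged from 5.60 to 6.38 on the 4 arrays without PAC, stood at 6.93 to 8.11 on the 6 arrays with PAC and no GA3, and at 8.27 to 8.95 on the 6 arrays with both. AT1G23205 read 4.11 to 4.40 without PAC and 2.41 to 3.23 with it.

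The arrays with and without GA3 were separated completely, over 16 arrays, by 4 of the 31 probe sets: AT5G22580, which was higher with GA3, and AT1G52100 and 2 unnamed probe sets, which were lower. AT1G52100 lay between 4.48 and 5.63 on the 6 arrays with GA3 and between 5.95 and 7.62 on the 10 without. AT3G44970 came close to this pattern and separated the other 12 arrays by GA3, but not all 16, because replicate 1 of ARR1_PAC_GA, at 5.61, reached the ARR1_PAC_DEX arrays at 5.42 and 5.61. In wild type with PAC, GA3 and BA (Col_PAC_GA_BA), AT3G44970 stood at 4.71 and 4.83, and in wild type with PAC and BA at 5.81 and 6.48.

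All 8 arrays of the line were separated from all 8 of wild type by 3 of the 31, AT1G13750 and 1 unnamed probe set (both higher in the line) and 259723_at (lower in the line). AT1G13750 lay between 4.08 and 5.03 in the line and between 3.24 and 3.97 in wild type. All arrays of the line had PAC, and every wild type array with PAC also had BA. No treatment was given to both genotypes, so genotype and treatment cannot be told apart in this split. For 259723_at the line ranged from 2.73 to 3.48 and wild type from 4.83 to 5.69, the widest gap of the 3. Over all probe sets tested, 13 of 9454 (0.138%) made this separation, 124 (1.31%) that of PAC and 17 (0.18%) that of GA3. Each of these splits includes the ARR1_PAC_GA and Col_mock arrays, on opposite sides, and the 31 were called on the difference between them. The counts among the 31 are raised by that choice, so they are descriptions and are not read against the shares of all probe sets.

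AT5G62340 followed none of these patterns. The 14 arrays outside ARR1_PAC_GA ranged from 2.49 to 3.48, all below the filter's level, and that ARR1_PAC_GA alone lay above it is the condition through which the gene was tested. AT4G02850 and AT5G58570 were not ordered by PAC, GA3 or genotype. AT4G02850 was lower in ARR1_PAC_GA, at 2.92 and 3.55, than on the other 14 arrays, of which the lowest were ARR1_PAC at 3.95 and 3.78. AT5G58570 was low in Col_mock (3.54 and 4.01) but not in wild type given DEX alone (5.10 and 5.19), where it lay above both ARR1_PAC_GA arrays, and it was lowest in the line given DEX (3.13 to 3.40).

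Further fits placed each group beside others. Their group means share arrays with the comparison above, except for the last, and all use the same estimate of spread. Their values are therefore given side by side and were not counted against each other. Wild type given DEX for 3 h (Col_DEX) was the other group without PAC and GA3. Against it, 150 probe sets differed from ARR1_PAC_GA (41 higher and 109 lower, 1.59% of those tested), more than against Col_mock. PDF1.2 differed by 4.10 ± 0.67, AT5G22580 by 2.64 ± 0.20, AT5G01740 by 2.81 ± 0.36 and AT1G52100 by −1.45 ± 0.31, and all 4 were called. AT4G38540 (0.52 ± 0.19; adjusted p = 0.364), AT4G33540 (0.63 ± 0.18; adjusted p = 0.16) and AT5G58570 (−0.34 ± 0.19; adjusted p = 0.782) were not, and AT5G58570 had the opposite sign.

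Within the line, ARR1_PAC_GA differed from ARR1_PAC only by GA3, and 11 probe sets were called (2 higher and 9 lower, 0.116%). Among them, 257008_at was lower with GA3 by −1.90 ± 0.21 (adjusted p = 0.00295). AT5G22580 differed by 1.02 ± 0.20 (adjusted p = 0.0831) and AT1G52100 by −1.34 ± 0.31 (adjusted p = 0.0953), short of the threshold. PDF1.2 differed by 0.84 with a 95% interval from −0.62 to 2.30, and AT1G23205 by 0.02 with one of −0.33 to 0.37. AT1G23205 was near the floor in both groups.

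ARR1_PAC against Col_mock, which shares the untreated arrays, gave 15 calls (11 higher and 4 lower, 0.159%). In it AT5G22580 was higher by 2.30 ± 0.20, AT5G01740 by 2.20 ± 0.36, AT5G58570 by 2.05 ± 0.19 and AT4G38540 by 1.26 ± 0.19, and AT1G23205 was lower by −1.23 ± 0.16. PDF1.2 differed by 3.77 ± 0.67 and just missed the threshold (adjusted p = 0.053). AT3G44970, at −0.39 ± 0.33 (adjusted p = 0.626), did not pass it.

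Against wild type that had also received PAC and GA3 together with BA (Col_PAC_GA_BA), the line differed by genotype and BA, and 361 probe sets were called (162 higher and 199 lower, 3.82%). AT1G13750 was higher in the line by 1.25 ± 0.25 (adjusted p = 0.0175). AT4G02850 was lower by −1.73 ± 0.22 (adjusted p = 0.000729), AT3G26960 by −0.87 ± 0.22 (adjusted p = 0.0476), and 259723_at by −2.32 ± 0.22 (adjusted p = 7e-05). AT5G22580 differed by 0.54 ± 0.20 (adjusted p = 0.147), AT3G44970 by 0.49 ± 0.33 (adjusted p = 0.421) and AT1G71140 by less than 0.01, and none of the 3 was called.

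**Figure D3:**
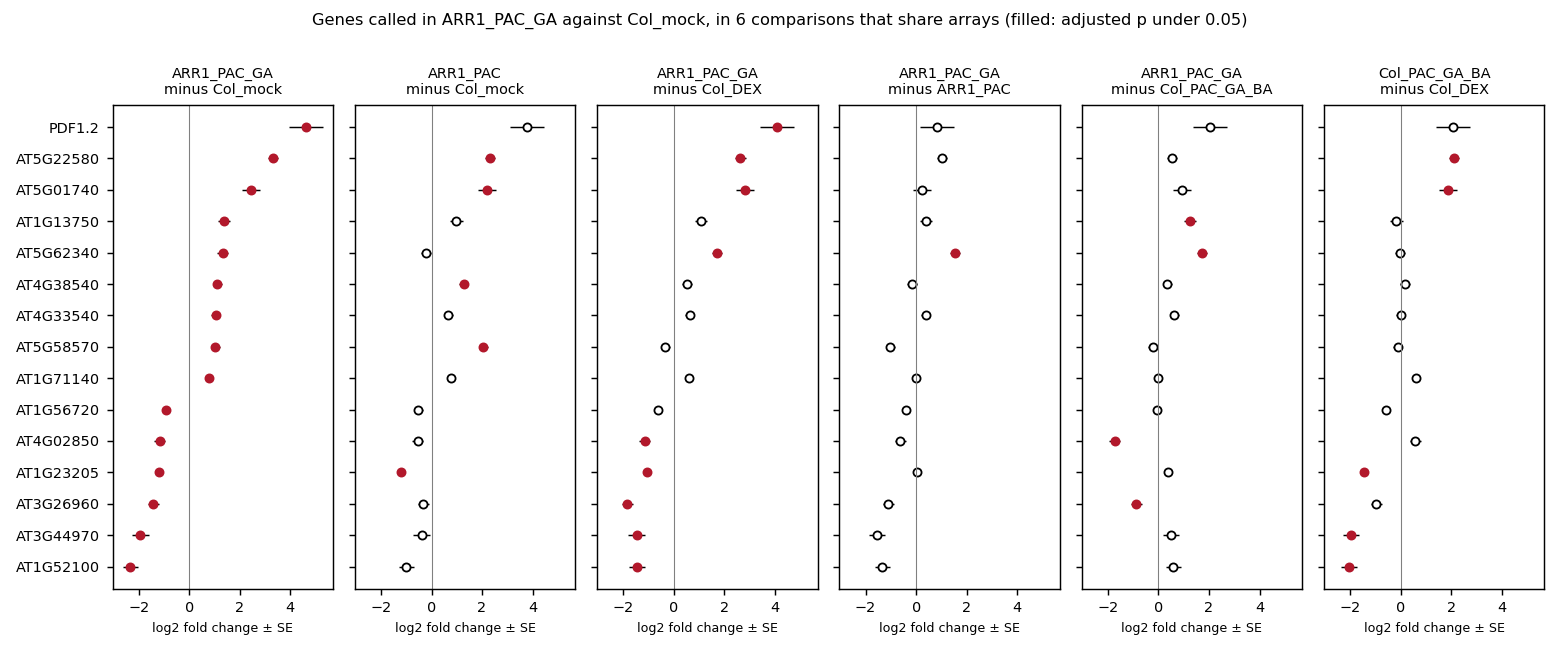
Log2 fold change (horizontal axis) ± SE of the 15 named genes in 6 comparisons, 1 per panel, with filled points where the adjusted p was under 0.05. AT5G22580 is filled in 4 panels. The points of AT5G62340 and AT1G56720, which passed the filter only through 1 of the groups compared, are descriptions whether filled or not. The group means of the first 5 panels share arrays of ARR1_PAC_GA or Col_mock, and all 6 panels share the estimate of spread.

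One comparison took its group means from none of the 4 arrays. Its spread, like that of the others, was estimated from the replicates of all arrays, these 4 included. Col_PAC_GA_BA against Col_DEX was wild type on both sides, differed by PAC, GA3, BA and DEX, and gave 48 calls (29 higher and 19 lower, 0.508%). Of the 31 probe sets called between ARR1_PAC_GA and Col_mock, 11 were called there too, all in the same direction (5 higher and 6 lower), which was 35.5% of the 31 and 22.9% of the 48. The SE of each probe set was the same in both comparisons, and a small SE favours a call in both. The 11 shared calls are therefore not independent. With only its own arrays fitted, the wild type comparison gave 4 calls in place of 48. The sign was shared by 24 of the 31, against 55.5% of all probe sets tested. AT5G22580 was higher in it by 2.10 ± 0.20 (adjusted p = 0.000717) and AT5G01740 by 1.87 ± 0.36 (adjusted p = 0.0415). AT1G52100 was lower by −2.05 ± 0.31 (adjusted p = 0.0156), AT3G44970 by −1.96 ± 0.33 (adjusted p = 0.0254) and AT1G23205 by −1.45 ± 0.16 (adjusted p = 0.00171). These 5 genes differed in the same direction between these 2 wild type groups, which also differed by BA and DEX. The part of the transgene in their differences was not tested.

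Other members of the 31 did not pass the threshold in that wild type comparison. PDF1.2 differed by 2.06 ± 0.67 (adjusted p = 0.198), with Col_PAC_GA_BA arrays at 6.99 and 4.89 and Col_DEX arrays at 3.30 and 4.46. AT1G13750 differed by −0.17 ± 0.25, with a 95% interval of −0.72 to 0.37. The difference between the 2 comparisons was not tested for any gene.

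The genes of the hormone pathways that the chemicals and the transgene address were taken from lists. With the tissue markers, 32 lists were drawn up. Those for brassinosteroid, sterol, phosphate starvation and mitochondrial genes had no probe set that carried the name of 1 member alone. Of the 24 lists by function that had such a probe set, 13 had at least 3 tested. Of the 132 probe sets of all lists that were tested 1 was called, PDF1.2. That is a share of 0.758% that 1 call sets, against 0.328% of all probe sets tested. Many other pathway genes were not analysed here because no probe set carried their name alone or because it was too dim. DELLA-induced genes, which are switched on when DELLA proteins accumulate, had 3 tested members and none called. XERICO, a RING-type ubiquitin ligase gene that promotes abscisic acid accumulation, read 3.25 and 2.92 in ARR1_PAC_GA and 4.01 and 4.31 in Col_mock. It reached 4 on no other array and so passed the filter only through Col_mock, where it was high, and no median or direction of this list is read. The helix-loop-helix gene AT2G31730 read 4.40 and 3.89 against 5.23 and 5.11 (−1.02 ± 0.33; adjusted p = 0.40), and AT5G50915, of the same family, differed by −0.40 ± 0.31 (adjusted p = 0.98).

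Of the gibberellin synthesis and signalling genes only SLY1, the F-box protein gene through which DELLA proteins are degraded, was tested, at 4.01 and 3.91 against 4.0 and 3.76 (0.08 ± 0.27; 95% interval −0.51 to 0.67). GASA peptide genes, small cysteine-rich proteins of which many respond to gibberellin, had 3 tested and none called. AT2G14900 read 5.84 and 5.27 against 6.39 and 6.38 (−0.83 ± 0.18; adjusted p = 0.102), whereas AT5G59845 and AT1G22690 differed by 0.03 ± 0.24 and −0.06 ± 0.31. AT1G22690 was abundant in both groups, between 9.21 and 9.44.

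Type-A response regulators, the early targets of cytokinin and of ARR1, were represented by RR16 and ARR15. RR16 read 5.21 and 4.99 in ARR1_PAC_GA and 4.28 and 3.99 in Col_mock (0.97 ± 0.25; adjusted p = 0.203). Wild type given DEX alone read 5.08 and 5.64 and ARR1_PAC 4.67 and 5.11, while the induced line with PAC and GA3 reached 10.10 and 10.29. ARR15 was near the floor on both sides, at 2.71 and 2.41 against 2.59 and 2.71 (−0.09 ± 0.29; 95% interval −0.73 to 0.54). UGT76C2, which glucosylates cytokinins, read 3.13 and 3.38 against 3.90 and 4.08 (−0.74 ± 0.19; adjusted p = 0.209).

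**Figure D4:**
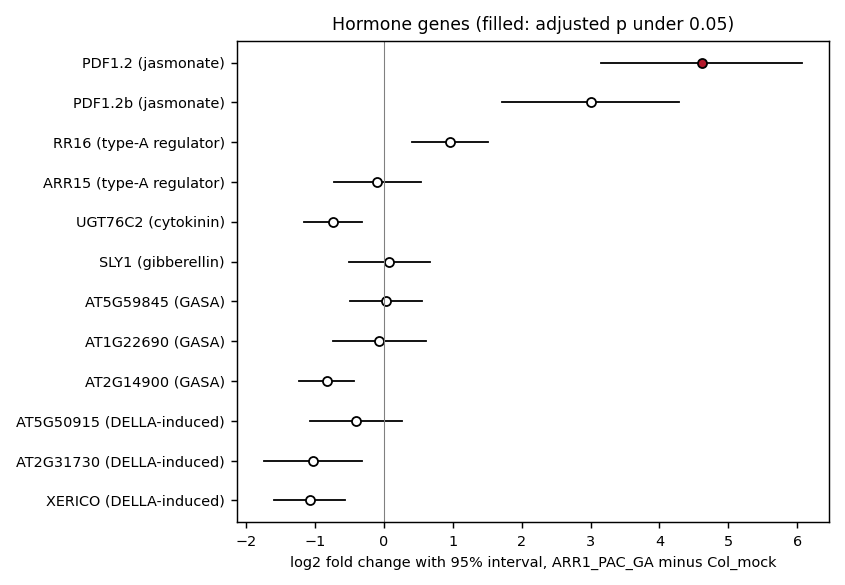
Log2 fold change of 12 hormone pathway genes, ARR1_PAC_GA minus Col_mock (horizontal axis), as points with 95% intervals. Only PDF1.2 is filled (adjusted p under 0.05). Of the DELLA-induced genes, XERICO passed the filter only through Col_mock, and the interval of AT5G50915 includes 0.

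The remaining lists of at least 3 probe sets had no call, and their medians lay between −0.70 and 0.37. The 6 flavonoid synthesis genes were all below 0 with a median of −0.70. Their mean level was 4.31 and 5.21 on the ARR1_PAC_GA arrays and 5.15 and 5.94 on the Col_mock arrays. The groups thus overlapped, and replicates differed by about as much as the groups. DFR, which makes the leucoanthocyanidins on the way to anthocyanins, had the lowest value (−1.91 ± 0.81; adjusted p = 0.693), but its arrays overlapped, at 2.79 and 4.87 in ARR1_PAC_GA and 4.81 and 6.67 in Col_mock. CHIL, a chalcone isomerase-like gene, read 6.12 and 7.06 against 7.41 and 7.07 (−0.65 ± 0.32; adjusted p = 0.815). In both groups the replicates of DFR differed by about as much as the groups did.

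Of 9 expansin and xyloglucan endotransglucosylase genes, which loosen and remodel the cell wall during growth, 7 were below 0, or 8 with centring on the 75th percentile, with a median of −0.13. XTH19 read 3.99 and 4.0 against 4.70 and 4.80 (−0.76 ± 0.16; adjusted p = 0.0847), and over the 16 arrays it was lower on every array with PAC than on every one without. Of 11 ribosome biogenesis factors 9 were above 0 (10 with quantile normalization), with a median of 0.18, none more than 0.46 away from 0. The 4 glucosinolate genes were all above 0 with a median of 0.28. AT2G31790 (0.07 ± 0.24) and UGT74B1 (0.10 ± 0.19) lay near 0, and their arrays overlapped. GSTU20, a glutathione transferase gene also counted with the 8 detoxification genes, read 9.08 and 10.01 against 8.24 and 8.82 (1.02 ± 0.39; adjusted p = 0.583).

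The 59 plastid-encoded probe sets were centred near 0, with 24 above and 35 below (22 and 37 with either other scaling), a median of −0.04 and a range of −0.41 to 0.51. Their mean level was 7.65 and 7.74 on the ARR1_PAC_GA arrays and 7.35 and 8.11 on the Col_mock arrays, so the replicates of wild type differed by more than the groups. The 4 nuclear photosynthesis genes had a median of −0.12. Of the 3 low oxygen genes, PDC2, a pyruvate decarboxylase gene of ethanolic fermentation, read 6.59 and 6.89 against 5.79 and 6.05 (0.82 ± 0.23; adjusted p = 0.259), and the other 2 were below 0.

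**Figure D5:**
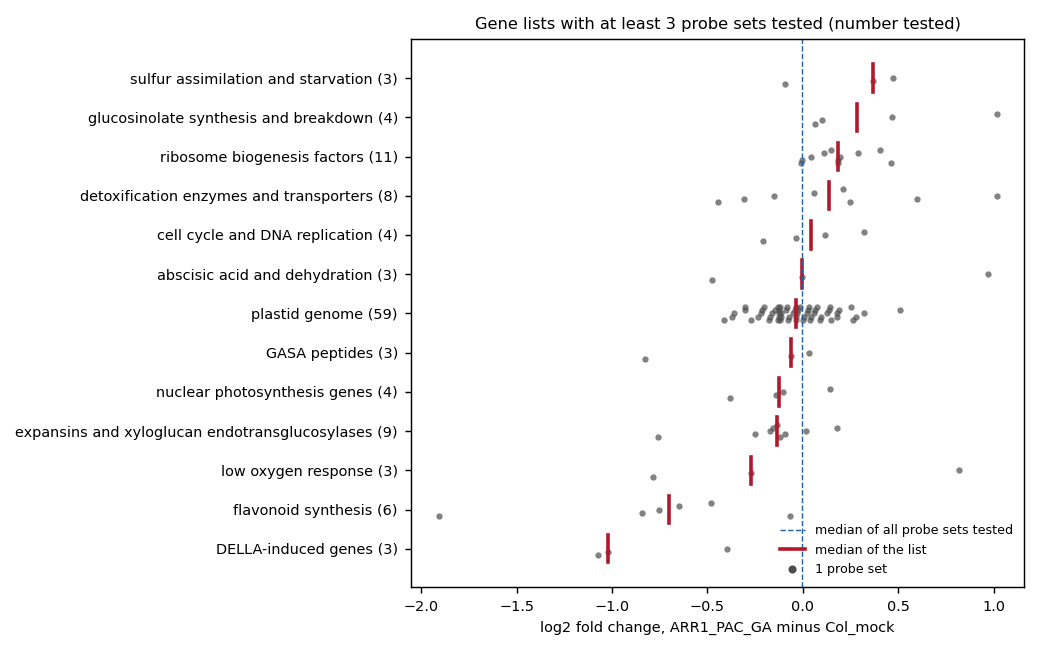
Log2 fold change, ARR1_PAC_GA minus Col_mock (horizontal axis), of each tested probe set (grey points) in the 13 lists with at least 3 tested, with the median of each list in red and that of all 9454 probe sets as a dashed line. The flavonoid list lies at −0.70 and the sulfur list at 0.37, and the DELLA-induced list holds XERICO, which passed the filter only through Col_mock.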

How the data were processed

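Total RNA of whole seedlings was hybridised to 16 Affymetrix ATH1 arrays, 2 for each of 8 groups named by the labels. The deposited table holds, per array, a log2 value for every probe set, which the authors obtained with GCRMA according to the submitters' processing notes. GCRMA corrects background by probe sequence, normalizes across arrays and summarises probes, and it compresses dim probe sets toward a floor. Its version is not given in the sources used here. Of 22810 probe sets, 64 controls were left out and 13292 were too dim, which left 9454 at a log2 of 4 or more on 2 or more arrays. Names came from the platform annotation table, with symbols updated through RefSeq (TAIR10.1). A single gene was given for 13513 probe sets, of which 13436 were matched, several for 503 and none for 8730, so 4529 of those tested stayed unnamed.

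Group means of all 16 arrays were fitted in limma 3.58.1 (R 4.3.3) with moderated variances, on 8 residual and 4.66 prior degrees of freedom. Tests were two-sided, with Benjamini-Hochberg adjustment over the 9454. The methods of the study name a Z-score transformation, which was run as an alternative past 1.96. It divided each difference by the standard deviation of all differences and took no account of the spread between replicates. Its count is therefore largely set by the cut-off in any comparison. The fit was also repeated without the filter or with its floor raised to 6, after quantile normalization or centring of each array on its 75th percentile, with trended and robust variances, with replicate number as a block, on the compared arrays alone, and with single arrays left out, when the lone array of a group was assumed to vary like the others.

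Named were called probe sets with 1 gene and non-overlapping groups (up to 15 each way), up to 4 members of each list by adjusted p, and every tested member of the gibberellin, GASA, DELLA-induced and type-A lists. The unnamed probe sets given by identifier, and the genes next to the threshold, were added after their values were seen. Comparisons, members and lists were chosen with earlier results of these data known. On simulated data (20 runs, 200 of 9454 probe sets changed), ARR1_PAC_GA minus Col_mock found 10.3% of the changes of 0.5 on the log2 scale, 64% of those of 1, 94.7% of those of 2 and 98.8% of those of 3, and 4.56% of its calls were false. The simulated noise was normal and independent between arrays, and more probe sets were changed than were called in the real comparison. These rates therefore need not hold for the real data. The number of arrays limits the precision, and the median 95% interval reached 0.44 to either side. Plots used Python 3.11.15 with matplotlib 3.10.9.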

Additional observations from a re-analysis of the deposited data

How the results depend on the processing

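The count of 31 probe sets between ARR1_PAC_GA and Col_mock was 30 with no filter, of which 8 were among the 31 and the split was 9 higher and 21 lower. It was 15 with a floor of 6 (where fewer were tested), 24 with quantile normalization and 31 with centring on the 75th percentile. It was 29 with a trended and robust variance model, and 8 with only the 4 arrays fitted, of which 6 were among the 31. It was 441 with the Z test, whose cut-off largely sets the count. It was 4 without ARR1_PAC_GA replicate 1, 4 without replicate 2, 11 without Col_mock replicate 1 and 3 without Col_mock replicate 2. All 31 kept their sign under every alternative that tested them, as did 39 of the other 59 named list genes. For the 31, whose groups did not overlap, leaving out an array could not change the sign. Against Col_DEX, 150 became 81 with no filter, 80 with the floor of 6, 58 with only its arrays and 409 with the Z test, and 49 to 121 with an array left out. For GA3 in the line, 11 became 35, 7, 0 (limma; smallest adjusted p = 0.203, 1125 at an unadjusted p under 0.05) and 494 in the same order, 17 with quantile normalization, and 1 to 6 with an array left out. For ARR1_PAC minus Col_mock, 15 became 60 with no filter, 0 with only its arrays (limma; smallest adjusted p = 0.152, 1099 at an unadjusted p under 0.05) and 495 with the Z test, and 6 to 26 with an array left out. Against Col_PAC_GA_BA, 361 became 95 to 166 with an array left out. For Col_PAC_GA_BA minus Col_DEX, 48 became 29 with the floor of 6, 4 with only its arrays and 506 with the Z test, and 7 to 17 with an array left out. Separation by genotype, 3 probe sets, became 1 with no filter and 0 with the floor of 6, and that by GA3, 4, became 1 with no filter. The cause was not tested beyond the number of probe sets or arrays that each alternative used.

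The replicate numbers were not shown to pair the samples: deviations of same-numbered arrays correlated at −0.331 to 0.48 over 28 pairs of groups (median 0.207, with 21 of the 28 over 0.1; 0.228 for ARR1_PAC_GA with Col_mock). With the replicate number as a block, 41 probe sets were called, which included the 31, and PDF1.2b was among them (adjusted p = 0.0434). The block gave 19 calls in place of 11 for GA3 in the line, 47 in place of 15 for ARR1_PAC minus Col_mock and 78 in place of 48 for Col_PAC_GA_BA minus Col_DEX. Other scalings moved the median of all log2 fold changes by less than 0.02. Of the 24 lists by function with a named probe set, 11 had fewer than 3 probe sets tested, and dim probe sets near the floor limit what a fold change can show.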
